A study of Homo sapiens with 6 samples.

Results

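Aminoacyl-tRNA synthetase genes were followed in NB4 cells, which derive from human acute promyelocytic leukaemia, so that cells of both groups express the PML-RARA fusion. The set holds 39 of the 23858 genes listed, found by symbol from a given list of names: 20 genes of the cytosolic enzymes, 16 of the mitochondrial enzymes, whose names end in 2, and 3 scaffold genes (AIMP1, AIMP2 and EEF1E1). AIMP2 also ends in 2 and was placed with the scaffolds. The groups were 3 control libraries and 3 libraries of cells given arsenic trioxide for 6 h, a drug that brings about breakdown of the PML-RARA protein and is used to treat this leukaemia. The dose and any vehicle in the controls are not given in the sources used here. Nor is it said that replicates came from separate cultures, so the p-values rest on a spread between libraries that may be technical. All cells are of 1 line. Libraries were made from total RNA depleted of ribosomal RNA, and levels are in RPKM, a read number divided by the exon length of the gene and by the library's counted reads.

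Aminoacyl-tRNA synthetases join each amino acid to its tRNA and so supply the ribosome with its substrates. Cytosolic and mitochondrial translation mostly use enzymes from separate nuclear genes, while GARS and KARS each encode both forms. Several cytosolic enzymes sit in a multi-synthetase complex held by the scaffold proteins. When uncharged tRNA builds up or eIF2 alpha is otherwise phosphorylated, the transcription factor ATF4 raises many cytosolic synthetase genes through C/EBP-ATF response elements.

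After arsenic trioxide, 10 of the 20 cytosolic genes rose, 3 fell and 7 did not pass the test, an adjusted p under 0.05 in limma-trend on log2(RPKM + 1). Of the 16 mitochondrial genes, 1 rose, 5 fell and 10 did not pass, and none of the 3 scaffold genes passed. Among all 16803 genes tested, 12.0% rose and 13.4% fell. The median log2 fold change was 0.32 over the cytosolic genes, -0.28 over the mitochondrial genes and -0.14 over the scaffold genes, beside -0.0033 over all genes tested. All 39 members had a mean of at least 1 RPKM and were tested. In these values a share of RNA is measured, so fewer cells of a kind and less RNA per cell cannot be told apart.

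Cytosolic synthetase RNA summed to 939.5, 963 and 967 RPKM in control replicates 1, 2 and 3 and to 1269, 1262 and 1125 RPKM in arsenic trioxide replicates 1, 2 and 3. Every treated library lay above every control library, and the mean was 27.4% higher. Mitochondrial synthetase RNA summed to 253, 266 and 258 RPKM in the controls and 221, 214 and 208 RPKM after treatment, again with no overlap, and its mean was 17.2% lower. Both sums weight the abundant genes most. GARS and KARS, which encode both forms, were counted in the cytosolic sum only. Their means went from 81.4 to 165 RPKM and from 71.1 to 65.2 RPKM, respectively. The mitochondrial sum covers the separate mitochondrial genes and not all RNA that encodes mitochondrial enzymes. An exact two-sided permutation test of 3 against 3 libraries cannot go below 0.1, and no test of these sums was made.

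The promoter windows of several cytosolic genes that rose hold the letters of a C/EBP-ATF response element, and these stretches are shown because they fall mostly in that group. Windows ran from 250 bases before to 50 bases after the RefSeq start on build GRCh38.p14 and were given for 33 of the 39 members. DARS, LARS, VARS, YARS, AARS2 and VARS2 had none. TGATGNAA, searched on both strands, occurred in 8 of the 33 members. The 30 bases around each match are printed 5′ to 3′ on the strand where the match reads forward, with the match in capitals.
AARS, chr16:70289675-70289704, plus strand: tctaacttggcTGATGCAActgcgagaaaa
CARS, chr11:3057407-3057436, plus strand: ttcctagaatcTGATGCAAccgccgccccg
GARS, chr7:30594834-30594863, minus strand: ggctcggagcaTGATGAAAtcgccgcgtaa
IARS, chr9:92293692-92293721, plus strand: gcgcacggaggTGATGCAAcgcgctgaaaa
MARS, chr12:57488053-57488082, minus strand: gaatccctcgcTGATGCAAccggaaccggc
TARS, chr5:33440956-33440985, minus strand: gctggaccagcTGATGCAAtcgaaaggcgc
NARS, chr18:57621804-57621833, minus strand: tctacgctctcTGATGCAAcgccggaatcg
YARS2, chr12:32756076-32756105, minus strand: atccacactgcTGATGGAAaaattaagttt

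The first 6 genes rose, NARS did not pass the test and YARS2 fell. Cytosolic genes that rose held the letters in 6 of 9 windows (66.7%), and the other cytosolic genes in 1 of 7, against 4.46% of the 27305 genes with a window and 3.62% of the 35116 windows. Mitochondrial genes held them in 1 of 14 (7.14%). The stricter TGATGCAA stood in 5 of the 9 cytosolic genes that rose and in 0 of the 14 mitochondrial genes, against 1.08% of all genes. In CARS, IARS, MARS, TARS and NARS the match began within 15 bases of the start, while in AARS and YARS2 it began 187 and 197 bases before it. WARS, SARS and EPRS, which rose, had no match in these windows. No match says only that the letters are absent there, and a match is a description of sequence and not a binding site. The motifs were picked with the expression values known.

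**Figure D1:**
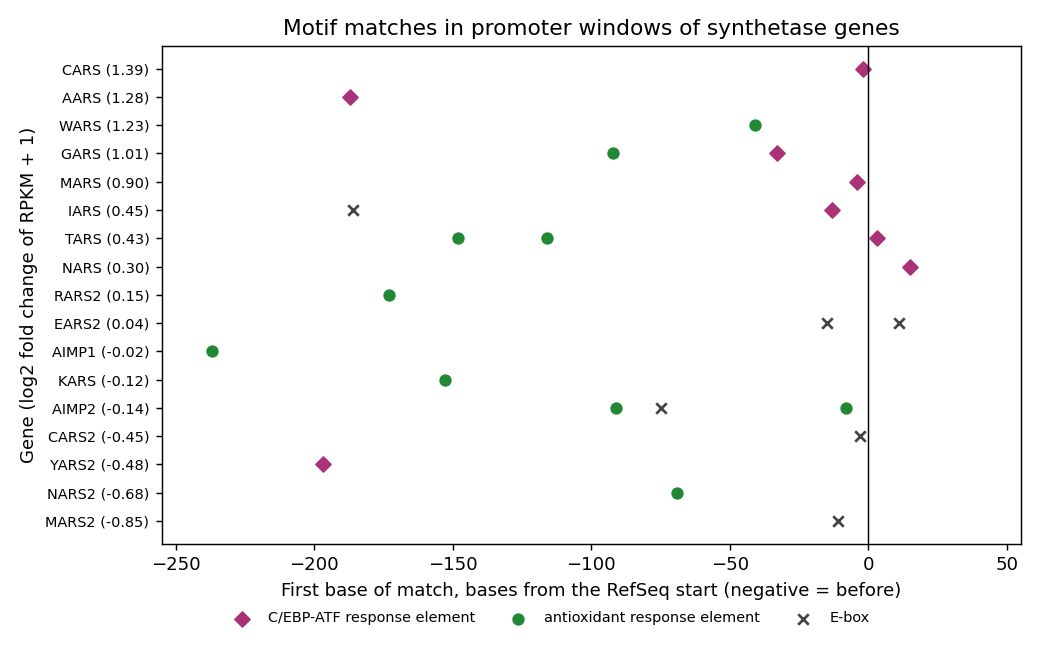
Positions of motif matches (x axis, bases from the RefSeq start, negative before it) in the windows of synthetase genes with any match (y axis, with each gene's log2 fold change). Diamonds stand for TGATGNAA, circles for TGACNNNGC and crosses for CACGTG. Diamonds are on 8 genes, 6 of them cytosolic genes that rose.

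For comparison, the antioxidant response element TGACNNNGC, read by NRF2, was searched on both strands in the same windows and stood in 8 of 33 members (24.2%) against 16.1% of all genes. It was in 3 of 9 cytosolic genes that rose (GARS, TARS and WARS), and in 2 of 14 mitochondrial genes (14.3%). The E-box CACGTG, bound by MYC and its relatives, stood in 5 of 33 members (15.2%) against 8.77%, namely MARS2 and CARS2, which fell, IARS, which rose, and EARS2 and AIMP2, which did not pass the test. No match of 1 motif shared bases with a match of another.

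The libraries held 19361333 to 22609019 counted reads. For an exon length of 1 kb, 3 reads are worth 0.133 to 0.155 RPKM, which limits counting error only. The first principal component (55.3% of the variance) separated the groups, and the second (15.2%) separated 1 control (replicate 1) and 1 treated library (replicate 3) from the other 4. Results that lose their call without both are named below. Of 7 promyelocyte markers 6 are listed (ELANE is not), and their summed level was 1039 to 1435 RPKM in controls and 689 to 1041 RPKM after treatment. MPO, the granule peroxidase, made up most of it. Of markers of other cells, 1 of 3 T cell markers is listed (CD3D, 3.04 to 4.22 RPKM), as are 0 of 3 fibroblast markers, 1 of 3 erythroid markers (at most 0.387 RPKM) and 2 of 3 epithelial markers (4.83 to 7.12 RPKM summed). Their part in the results was not tested.

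Among cytosolic enzymes outside the multi-synthetase complex, 7 of 12 rose (AARS, CARS, GARS, SARS, TARS, WARS and YARS), 2 fell and 3 did not pass, with a median log2 fold change of 0.52. Inside it, 3 of 8 rose (EPRS, IARS and MARS), 1 fell and 4 did not pass, with a median of -0.0019. Over all genes tested, 12.0% rose and 13.4% fell. The difference between these subsets was not tested. By structural class the counts were close: 5 of 9 class I genes and 4 of 10 class II genes rose, with EPRS, which holds both kinds of catalytic domain, outside this split.

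**Figure D2:**
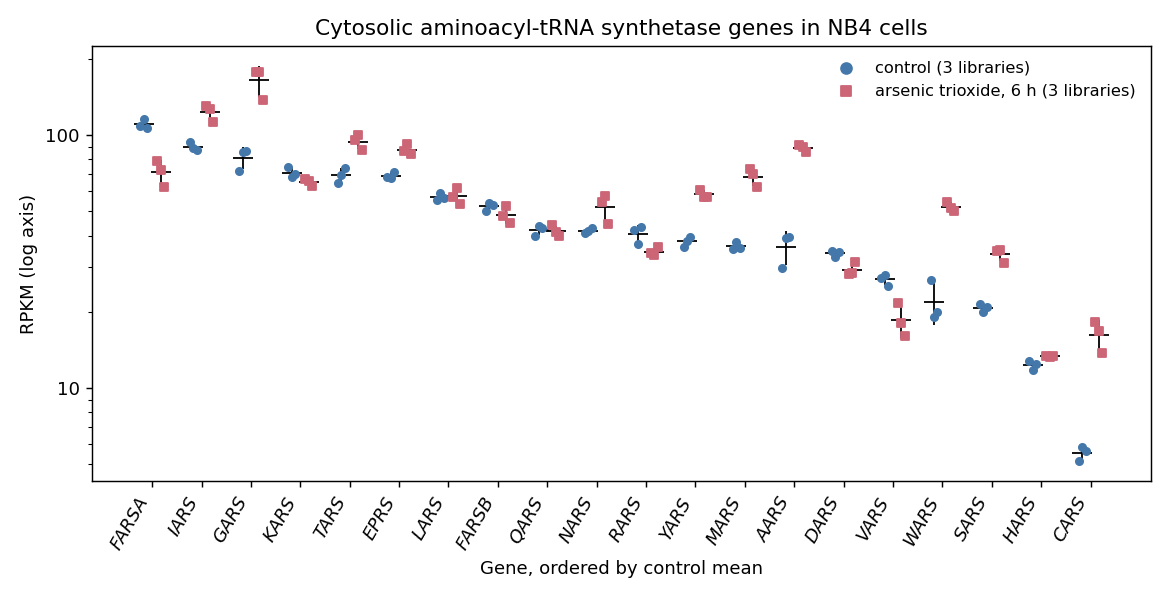
Levels of the 20 cytosolic synthetase genes (y axis, RPKM on a log scale) in each of the 6 libraries, with points for single libraries, horizontal lines for group means and vertical lines for the SD. CARS moves from 5.54 to 16.3 RPKM on average and FARSA from 110.1 to 71.3 RPKM.

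CARS, the cysteinyl-tRNA synthetase gene (chr11:3000922-3057613, minus strand; member positions are GENCODE 29 on GRCh38), had the lowest mean of the cytosolic genes in control cells. It read 5.13, 5.83 and 5.66 RPKM in control replicates 1 to 3, while the treated replicates 1 to 3 read 18.2, 16.8 and 13.8 RPKM. The groups were far apart, with the third treated library the lowest of its group. Its mean rose 2.93-fold, or by 1.39 ± 0.11 in log2 (± SE here and for all log2 fold changes), with a limma-trend adjusted p of 0.000691. CARS shares 205 exon bases with its antisense gene CARS-AS1, and the library kit does not mark strand. CARS-AS1 itself rose, from below 1 RPKM in each control to 1.71 to 3.04 RPKM.

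AARS, which charges alanine tRNA (chr16:70252295-70289543, minus strand), read 29.9, 39.2 and 39.4 RPKM in the controls and 91.0, 89.7 and 85.3 RPKM in the treated libraries. Control replicate 1 was the lowest of all, and the treated libraries were close together. The mean rose 2.45-fold, with a log2 fold change of 1.28 ± 0.11 (limma-trend adjusted p = 0.000791).

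WARS, which charges tryptophan tRNA and is known as an interferon-induced gene (chr14:100333788-100376805, minus strand), gave 26.6, 19.0 and 19.9 RPKM without the drug and 54.4, 51.6 and 50.1 RPKM with it. Here control replicate 1 was the highest control. WARS rose 2.39-fold, by 1.23 ± 0.12 on the log2 scale (limma-trend adjusted p = 0.00126).

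GARS, the source of both the cytosolic and the mitochondrial glycyl-tRNA synthetase (chr7:30594681-30634033, plus strand), was measured at 71.8, 85.6 and 86.7 RPKM in controls and at 178, 178 and 138 RPKM after treatment. It moved from the third highest to the highest mean of the 39 genes. The difference was 2.03-fold, or 1.01 ± 0.12 in log2 (limma-trend adjusted p = 0.00227), and arsenic trioxide replicate 3 lay well below the other two treated libraries but above every control. KARS, the other gene that serves both compartments, did not pass the test, with 71.1 ± 3.31 RPKM in controls and 65.2 ± 2.3 RPKM after treatment (SD, n = 3 each).

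MARS, which charges both initiator and elongator methionine tRNA (chr12:57475445-57517569, plus strand), was the gene of the complex with the largest fold change. Its libraries read 35.4, 37.6 and 35.9 RPKM in controls and 73.4, 69.9 and 62.2 RPKM after treatment, a 1.89-fold rise (log2 fold change 0.90 ± 0.07, limma-trend adjusted p = 0.000657). It shares 355 exon bases on the opposite strand with DDIT3, the stress factor CHOP, which rose from 4.68 ± 1.57 to 23.1 ± 5.88 RPKM (SD, n = 3 each). Over all its exons DDIT3 held 77 to 180 reads per control library and 455 to 733 per treated library, beside 5020 to 5700 and 9612 to 11509 reads for MARS. Reads on the shared bases cannot be told apart without strand.

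The other 5 cytosolic genes that rose did so by less. SARS, the seryl-tRNA synthetase gene, went from 20.8 ± 0.705 to 33.7 ± 2.14 RPKM, 1.62-fold. YARS, for tyrosine, went from 37.9 ± 1.71 to 58.2 ± 2.17 RPKM, 1.53-fold. IARS, for isoleucine, went from 89.8 ± 3.81 to 123 ± 9.85 RPKM, 1.37-fold, and kept the second highest mean in both groups. TARS, for threonine, went from 69.4 ± 4.73 to 94.1 ± 6.33 RPKM, 1.36-fold, and EPRS, the fused glutamyl-prolyl enzyme, from 69.0 ± 2.19 to 87.5 ± 4.31 RPKM, 1.27-fold (SD, n = 3 each). In each of these genes all treated libraries lay above all controls, with limma-trend adjusted p-values between 0.00105 (YARS) and 0.00746 (TARS). Over all genes tested, 21.9% had all treated libraries above all controls.

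NARS, the asparaginyl-tRNA synthetase gene and the only cytosolic gene short of the threshold whose window held TGATGCAA, missed narrowly. Its libraries read 41.0, 41.9 and 42.8 RPKM in controls and 54.1, 57.5 and 44.6 RPKM after treatment, all treated ones above all controls (log2 fold change 0.30 ± 0.09, limma-trend adjusted p = 0.0581). Without arsenic trioxide replicate 3 the adjusted p was 0.00885, and limma-voom on reads gave 0.0208. The authors' deposited table gives NARS a log2 fold change of 0.30 with an adjusted p of 0.0344.

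FARSA, the alpha subunit of cytosolic phenylalanyl-tRNA synthetase (chr19:12922479-12934037, minus strand), went the other way. It had the highest control mean of the 39 genes, with 108, 116 and 107 RPKM, and 78.9, 73.0 and 62.0 RPKM after treatment. FARSA fell by 35.2% and from the first to the sixth rank (log2 fold change -0.63 ± 0.09, limma-trend adjusted p = 0.00456). It shares 25 exon bases with FARSA-AS1, an antisense gene that fell from 17.9 ± 1.98 to 9.51 ± 1.81 RPKM (SD, n = 3 each). FARSB, its partner beta subunit, did not pass the test, at 50.2, 53.9 and 52.9 RPKM in controls and 48.0, 52.4 and 44.7 RPKM after treatment, with overlapping groups. The log2 ratio of FARSA to FARSB (each as RPKM + 1) was 1.09, 1.09 and 1.00 in controls and 0.70, 0.47 and 0.46 after treatment. It was lower in every treated library, by 0.51 on average, with an exact two-sided permutation p of 0.1 (n = 3 each), the smallest this design allows.

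VARS, the valyl-tRNA synthetase gene in the major histocompatibility region (chr6:31777518-31795953, minus strand), fell by 30.7%. The 3 controls read 27.2, 28.0 and 25.4 RPKM, and the treated libraries, all lower, averaged 18.6 ± 2.89 RPKM (SD, n = 3; log2 fold change -0.52 ± 0.11, limma-trend adjusted p = 0.0153). The adjusted p was 0.0526 without control replicate 2 and 0.0692 without control replicate 1 and arsenic trioxide replicate 3. DARS, for aspartate, fell from 34.1 ± 1.09 to 29.4 ± 1.74 RPKM (SD, n = 3 each), with -0.21 ± 0.06 as its log2 fold change (adjusted p = 0.0453 in limma-trend). The DARS call was lost in 9 of 14 alternative analyses, among them leaving out any control library or arsenic trioxide replicate 1 or 2 (adjusted p = 0.0768 to 0.126) and leaving out control replicate 1 with arsenic trioxide replicate 3 (0.0584). In the authors' deposited table DARS has an adjusted p of 0.0547.

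The remaining cytosolic genes did not pass the test. LARS (log2 fold change 0.01 ± 0.07) and QARS (-0.02 ± 0.06), for leucine and glutamine, had overlapping groups and limma-trend adjusted p-values of 0.913 and 0.876. HARS, for histidine, had 12.8, 11.8 and 12.4 RPKM in controls and 13.4, 13.3 and 13.4 RPKM after treatment, not overlapping but only 0.11 ± 0.06 apart in log2 (adjusted p = 0.253). HARS and HARS2 lie head to head and share 437 exon bases on opposite strands, where their reads cannot be told apart. RARS, for arginine, was lower in every treated library, at 40.7 ± 3.34 against 34.6 ± 1.25 RPKM (SD, n = 3 each), and its limma-trend adjusted p was 0.0596. By limma-voom on reads, RARS passed, with an adjusted p of 0.0414.

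The mitochondrial synthetase genes had lower levels, with control means from 0.892 to 47.6 RPKM (median 13.3) beside 5.54 to 110.1 RPKM (median 41.3) for the cytosolic genes. After treatment their medians were 10.3 and 54.8 RPKM. All treated libraries lay below all controls for 10 of the 16 mitochondrial genes and above them for 3, against 22.6% and 21.9% of all genes tested. The 5 mitochondrial genes that fell were MARS2, NARS2, YARS2, CARS2 and LARS2. Of 9 mitochondrial class I genes 4 fell, and of 7 class II genes 1 did, beside 13.4% of all genes tested.

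**Figure D3:**
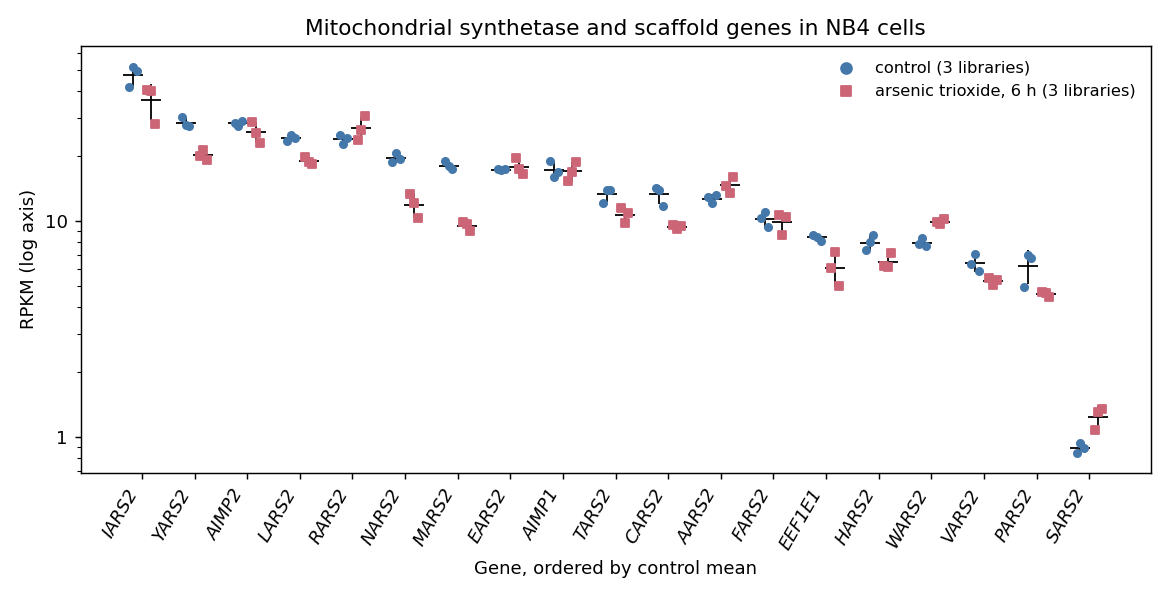
Levels of the 16 mitochondrial synthetase and 3 scaffold genes (y axis, RPKM on a log scale) in each of the 6 libraries, with points for single libraries, horizontal lines for group means and vertical lines for the SD. MARS2 moves from 18.1 to 9.55 RPKM on average, and SARS2 is the least abundant, at 0.892 and 1.25 RPKM.

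MARS2, which charges the mitochondrial methionine tRNA and is a gene of 1 exon (chr2:197705369-197708387, plus strand), read 18.9, 18.0 and 17.4 RPKM in controls and 9.91, 9.71 and 9.04 RPKM after treatment. Both groups were tight, and the mean fell by 47.1% (log2 fold change -0.85 ± 0.07, limma-trend adjusted p = 0.000667). NARS2, for mitochondrial asparagine tRNA (chr11:78435961-78574874, minus strand), gave 18.8, 20.6 and 19.5 RPKM in controls and 13.3, 12.2 and 10.3 RPKM after treatment. It fell by 39.3% (log2 fold change -0.68 ± 0.10, limma-trend adjusted p = 0.00411).

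YARS2, for tyrosine (chr12:32727490-32755902, minus strand), had 30.3, 27.9 and 27.5 RPKM in controls and 20.1, 21.3 and 19.2 RPKM after treatment, and fell by 29.2% (log2 fold change -0.48 ± 0.07, limma-trend adjusted p = 0.00362). Its window is the only mitochondrial one above with a TGATGNAA match. CARS2, for cysteine, fell by 29.2% as well, from 14.2, 14.0 and 11.8 RPKM to 9.62, 9.25 and 9.47 RPKM (-0.45 ± 0.09 in log2, limma-trend adjusted p = 0.0108). Without control replicate 1 and arsenic trioxide replicate 3 its adjusted p was 0.0647. LARS2, for leucine, fell by 21.6%, from 24.3 ± 0.763 to 19.1 ± 0.759 RPKM (SD, n = 3 each; log2 fold change -0.34 ± 0.06, limma-trend adjusted p = 0.00825).

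WARS2, for mitochondrial tryptophan tRNA, was the 1 mitochondrial gene that rose, from 7.84, 8.36 and 7.68 RPKM to 9.90, 9.74 and 10.2 RPKM. The treated libraries were all higher, by 1.25-fold in the mean (log2 fold change 0.29 ± 0.07, limma-trend adjusted p = 0.0295). Leaving out any 1 of the 6 libraries ended this call (adjusted p = 0.0534 to 0.0982), as did the replicate block (0.0826) and leaving out control replicate 1 with arsenic trioxide replicate 3 (0.117).

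Of the 10 mitochondrial genes that did not pass, 5 had all treated libraries below all controls. They were HARS2, IARS2, PARS2, TARS2 and VARS2, with log2 fold changes of -0.39 (IARS2) to -0.23 (VARS2) and limma-trend adjusted p-values of 0.0605 (TARS2) to 0.123 (VARS2). By limma-voom on reads, IARS2 and TARS2 passed (adjusted p = 0.0235 and 0.0346). Without control replicate 1, TARS2 and PARS2 passed (0.0471 and 0.0267), and without that library and arsenic trioxide replicate 3, IARS2 and PARS2 did (0.0283 and 0.0459). IARS2, for isoleucine, had the highest mean of the mitochondrial genes, at 41.8, 51.5 and 49.4 RPKM in controls and 40.4, 40.0 and 28.3 RPKM after treatment, and arsenic trioxide replicate 3 was far below the other two. AARS2 and SARS2 had all treated libraries above all controls without passing (adjusted p = 0.127 and 0.199), and SARS2 rested on 55 to 96 reads a library. SARS2 also shares 349 exon bases with MRPS12 on the opposite strand, a mitochondrial ribosomal protein gene that fell from 12.8 ± 1.39 to 6.43 ± 0.282 RPKM (SD, n = 3 each). EARS2, FARS2 and RARS2 had overlapping groups. VARS2 shares 1858 exon bases, 22.0% of its exon length, with GTF2H4 on the same strand, where even strand would not separate reads. GTF2H4 had means of 0.129 RPKM in controls and 0.0846 RPKM after treatment. The authors' deposited table gives IARS2, PARS2, TARS2 and VARS2 adjusted p-values of 0.0173, 0.0331, 0.0241 and 0.0378.

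**Figure D4:**
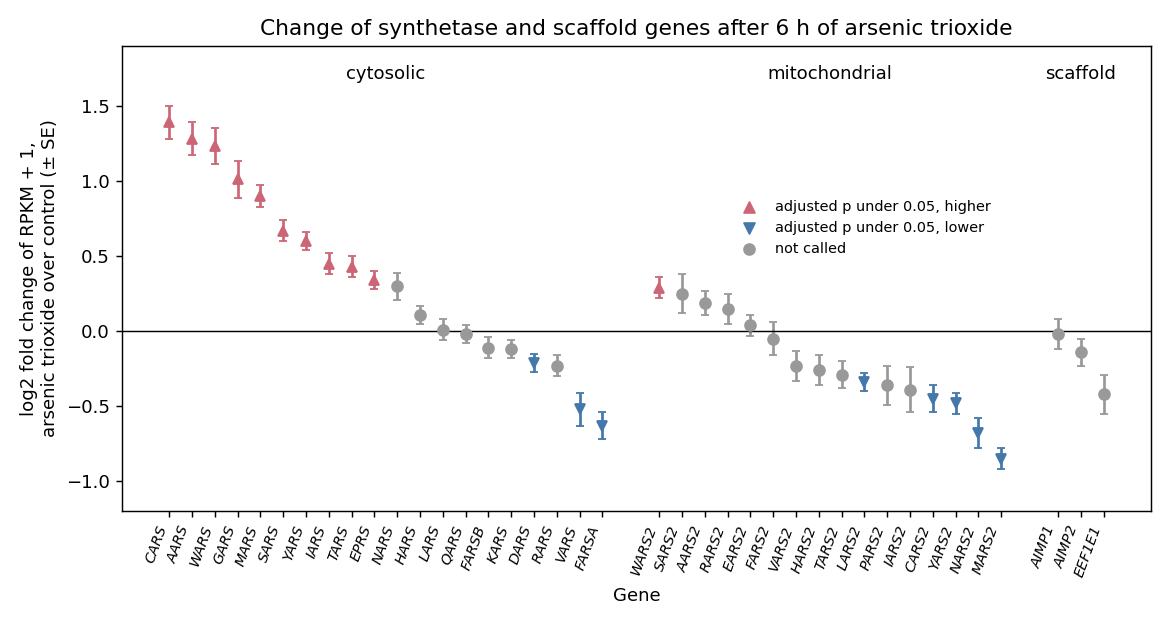
Log2 fold change of RPKM + 1, arsenic trioxide over control, for the 39 genes (x axis) by group, with bars for the standard error from limma-trend. Values run from -0.63 to 1.39 in the cytosolic genes and from -0.85 to 0.29 in the mitochondrial genes.

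The scaffold genes did not pass the test. AIMP1, a scaffold protein of the complex whose secreted fragment is a cytokine, was at 17.3 ± 1.49 RPKM in controls and 17.0 ± 1.76 RPKM after treatment. AIMP2, a core scaffold, was at 28.4 ± 0.711 and 25.9 ± 2.96 RPKM (SD, n = 3 each). It shares 532 exon bases, 28.9% of its exon length, with EIF2AK1 on the opposite strand. EIF2AK1 had a mean of 47.9 RPKM in both groups, and reads on the shared bases cannot be told apart without strand. EEF1E1, also called AIMP3, which links the complex to elongation factor 1, had 8.67, 8.46 and 8.14 RPKM in controls and 6.07, 7.24 and 4.99 RPKM after treatment. All treated libraries were lower, with a log2 fold change of -0.42 ± 0.13 (limma-trend adjusted p = 0.0501), and limma-voom on reads gave an adjusted p of 0.027. In the authors' deposited table EEF1E1 has an adjusted p of 0.0183.

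Cytosolic and mitochondrial enzymes for the same amino acid were compared within each library, as the log2 ratio of RPKM + 1. Over 17 such pairs, the ratio was higher in all treated libraries than in all controls for 13, lower for 3 and overlapping for 1. These ratios follow from the levels above and are no separate evidence. EPRS and FARS2 each stand in more than 1 pair, so the pairs are not independent. Of single genes tested, 21.9% had all treated libraries above all controls and 22.6% below. No such share was computed over other pairs of genes. The exact two-sided permutation p was 0.1 for each of the 16 pairs that did not overlap (n = 3 each, 20 assignments), 0.106 after Benjamini-Hochberg adjustment, so the design cannot place any below 0.05.

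CARS over CARS2 shifted most, from -1.30, -1.14 and -0.95 in controls to 0.86, 0.79 and 0.50 after treatment. In RPKM, the mitochondrial gene was the higher of the pair in every control library and the cytosolic gene in every treated library. Such a ranking between genes depends on the exon length used, 10037 bases for CARS and 10460 for CARS2. MARS over MARS2 was next, from 0.97 ± 0.08 to 2.72 ± 0.06 (SD, n = 3 each), a difference of 1.75. AARS over AARS2 differed by 1.09, YARS over YARS2 by 1.08, NARS over NARS2 by 0.98 and WARS over WARS2 by 0.94. The pairs with a lower ratio after treatment were FARSA over FARS2 (-0.58), RARS over RARS2 (-0.38) and VARS over VARS2 (-0.28). FARSB over FARS2 overlapped (exact permutation p = 0.7, n = 3 each).

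**Figure D5:**
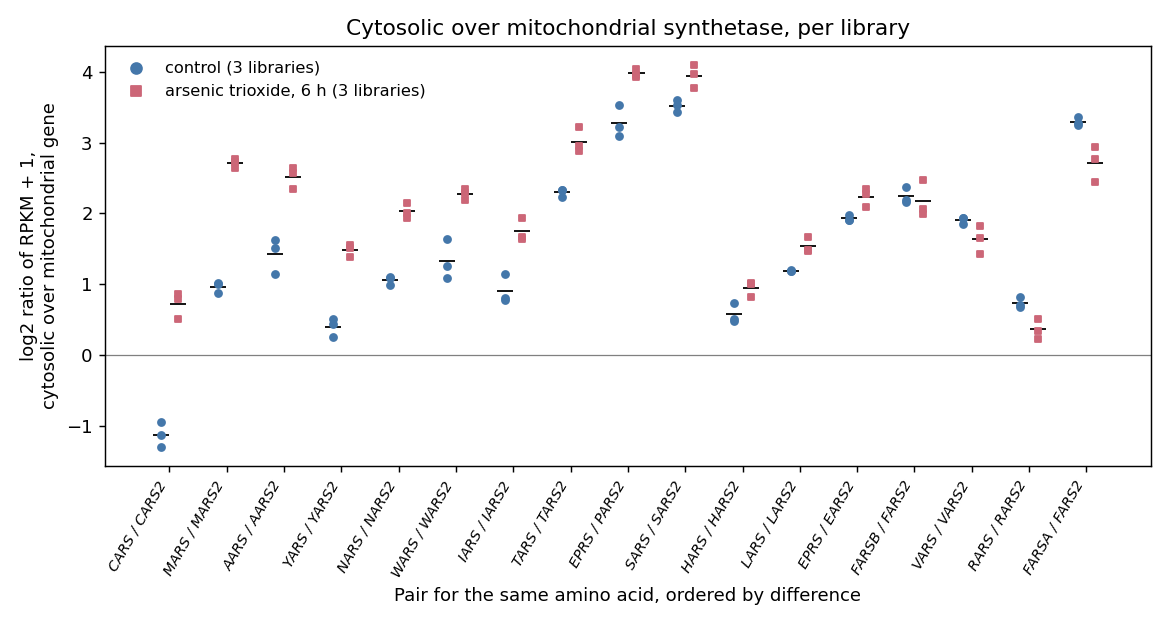
Log2 ratio of cytosolic to mitochondrial synthetase level (RPKM + 1) for 17 pairs in each library, with a point for each control and treated library and a line at each group mean. The CARS pair crosses 0 between the groups, and 3 pairs have lower ratios after treatment.

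Other genes of tRNA charging and translation were counted from lists chosen with earlier results known. Beside each list stand the shares over all genes tested, of which 12.0% rose, 13.4% fell and 25.4% passed in either direction. No list was tested against these shares. Of 11 tested relatives and partners of the synthetases, 2 rose and 2 fell. PSTK, which prepares serine on the selenocysteine tRNA, and GATB, a subunit of the mitochondrial glutamyl-tRNA amidotransferase, rose from 2.17 ± 0.34 to 3.71 ± 0.457 and from 3.78 ± 0.334 to 5.56 ± 0.50 RPKM. GATC, another subunit of that enzyme, fell from 22.7 ± 0.357 to 17.9 ± 1.61 RPKM, and MTFMT, which formylates the mitochondrial initiator tRNA, fell from 9.02 ± 0.642 to 6.74 ± 0.794 RPKM (SD, n = 3 each).

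Of 22 tested genes of tRNA maturation and export, 2 rose and 13 fell, with a median log2 fold change of -0.38. XPOT, the nuclear export receptor of tRNA, rose from 64.6 ± 0.891 to 94.9 ± 6.32 RPKM, and TSEN15, a subunit of the tRNA splicing endonuclease, from 19.9 ± 3.0 to 38.2 ± 1.44 RPKM. NSUN2, a tRNA cytosine methyltransferase, fell from 82.4 ± 2.6 to 56.5 ± 3.45 RPKM, and ELAC2, which trims the 3′ ends of tRNA precursors, from 27.9 ± 0.747 to 19.8 ± 1.5 RPKM (SD, n = 3 each).

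Of 5 cytosolic elongation genes tested, 1 changed: EEF2K, the kinase that inhibits elongation factor 2, fell from 21.3 ± 0.70 to 11.9 ± 0.877 RPKM (SD, n = 3 each; limma-trend adjusted p = 0.000897). Among 9 mitochondrial translation factors 1 rose (GFM2, which recycles mitochondrial ribosomes, 1.48-fold) and 2 fell (TSFM and MRRF). In a list that joins genes of uncharged tRNA sensing with ATF4 and genes linked to it, leaving out synthetases, 22 of 27 tested genes rose and 2 fell. Its sensing genes are EIF2AK4, the kinase GCN2 that binds uncharged tRNA, GCN1 and IMPACT, named after their values were seen. None of them rose. EIF2AK4 and IMPACT did not pass the test, with log2 fold changes of 0.03 and 0.06, and GCN1 fell (-0.33 ± 0.08, limma-trend adjusted p = 0.021). These are RNA levels, and the activity of the sensors was not measured.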

How the data were processed

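RPKM values of 23858 genes in 3 control and 3 arsenic trioxide libraries were computed and deposited by the authors. HISAT2 2.1.0, HTSeq, DESeq2 and hg38 are listed, without parameters, per the submitters' processing notes. Duplicate reads were removed, per the file headers. The authors' mean normalized signal, log2 fold change, test score and p-value per gene stand in the same deposited table and were quoted only as the authors' values, apart from the mean, which settled exon lengths. Members were matched by symbol. The members, lists and motifs were chosen with earlier results of these data known.

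The unit being RPKM, limma 3.58.1 in R 4.3.3 was run in trend mode on log2(RPKM + 1), for the 16803 genes whose mean reached 1 RPKM. Benjamini-Hochberg adjustment covered all of these genes, and an adjusted p under 0.05 was called. Whole reads were recovered from RPKM with GENCODE 29 exon lengths (100.0% of genes whole within 0.01 reads once the deposited mean was used, 93.0% from length alone) and served limma-voom as an alternative, which called 2504 genes higher and 2739 lower. Chi-square per degree of freedom between libraries of a group was 5.48 to 13.5, so none is a copy of another. The named genes are the members and, of each other list, up to 4 genes with the smallest p-values, apart from those marked in the text. Some genes of the other lists are not reported here and were left out of their counts. By GENCODE 29, exons of 20 members overlap another listed gene, and RPKM does not separate strands. For HARS, HARS2, FARS2 and LARS2 the exon lengths behind the deposited values differ from GENCODE 29. Tests were checked on simulated data, in which most of the small changes were missed. The simulation gave every gene the same spread and changed fewer genes than were called here, so its miss rate does not carry over. A gene that did not pass may still differ. Alternatives were other scalings, pseudocounts of 0.1 and 5, no filter, limma-voom, the replicate block, members with no overlap and leaving out libraries.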

Additional observations from a re-analysis of the deposited data

How the results depend on the processing

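Of the 11 genes called higher, 10 kept their call under each of the 14 alternatives (WARS2 did not), and of the 8 called lower 5 did (DARS, VARS and CARS2 did not). Leaving out 1 library at a time gave 1331 to 1525 genes higher and 1427 to 1908 lower over all genes, 10 to 11 higher and 2 to 3 lower among cytosolic genes, 0 mitochondrial genes higher and 5 to 7 lower (7 without control replicate 1, as with limma-voom), and 0 to 1 scaffold genes lower. The mitochondrial median was then -0.34 to -0.23 and the scaffold median -0.22 to -0.09. Without control replicate 1 and arsenic trioxide replicate 3, an alternative chosen after seeing the data, 1200 genes were higher and 1484 lower, with 1 cytosolic gene lower, 0 mitochondrial genes higher, a mitochondrial median of -0.33 and a scaffold median of -0.06. With a pseudocount of 5 the mitochondrial median was -0.20 and 1 scaffold gene was lower, as with limma-voom (1). Over the members whose exons overlap no listed gene, 5 of 10 cytosolic genes were higher and 1 lower, 0 of 8 mitochondrial genes were higher and 3 lower with a median of -0.35, and the 1 scaffold gene had -0.42. The cause of these shifts was not tested, and some of these alternatives held fewer libraries or genes.

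Same-numbered libraries did not deviate together (correlations -0.085, 0.148 and -0.083), and control replicate 1 correlated best with arsenic trioxide replicate 3 (0.221). These values show no pairing by number. They cannot exclude it, since deviations from a group mean of so few libraries depend on each other. With the replicate number as a block, 1460 genes were higher and 1616 lower, 10 cytosolic genes were higher and 2 lower, and 0 mitochondrial genes were higher and 5 lower. Small differences changed sign. LARS was at -0.0024 with median-ratio factors, and QARS at 0.03 and AIMP1 at 0.02 with upper quartile factors. With 1 library left out, the log2 fold change ran from -0.04 to 0.06 in LARS, from -0.05 to 0.01 in QARS, from -0.03 to 0.09 in EARS2, from -0.11 to 0.04 in FARS2 and from -0.09 to 0.05 in AIMP1. Depth limits SARS2 most among the members.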
